A study of Homo sapiens with 6 samples.

Results

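Transcription of 10 genes that carry cells through G1 was followed in HCT116 cells after knockdown or inhibition of GSTO1. The genes were chosen by name: the transcription factor MYC, the D cyclins CCND1 and CCND3, the E cyclins CCNE1 and CCNE2, the kinases CDK2, CDK4 and CDK6, the transcription factor E2F1 and the phosphatase CDC25A. Each had 1 row among the 22984 rows for genes on the sense strand in every library, and all 10 had counts in all 6 libraries. The study had earlier singled out MYC, CCND1 and CCNE1 from the same libraries, so their direction here is not independent evidence.

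HCT116 is an established human colorectal carcinoma cell line, and its nascent RNA was measured by Bru-seq. In this assay RNA made during a short pulse of bromouridine, here 0.5 h, is captured and sequenced, so that introns and exons both report transcription and not the pool of mature mRNA. The 6 libraries were 2 cultures in 0.01% DMSO for 4 h, 1 culture with GSTO1 siRNA (siGSTO1) at 10 nM for 24 h, 1 culture each with the GSTO1 inhibitor C1-27 at 1 μM for 4 h and 24 h, and 1 culture with C1-14, an analogue inactive against GSTO1, at 10 μM for 4 h. The siRNA time is that of the sample label, while the wording of the study's methods can be read as 4 h. The labels name no other allele or agent in any group. Each treatment had 1 culture, so a treated value cannot be checked against a replicate. The p-values rest on the spread between the 2 DMSO cultures, taken as a trend over all genes. They hold no spread between treated cultures. Both 24 h treatments were set against 4 h DMSO, and a non-targeting siRNA was not among the cultures analysed here. The effects of the siRNA itself, of transfection and of time in culture therefore cannot be told apart from those of GSTO1 loss.

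In G1, mitogens raise MYC and cyclin D1, and D cyclins activate CDK4 and CDK6 to phosphorylate the retinoblastoma protein. This releases E2F factors, which switch on the E cyclins and CDC25A. Cyclin E then activates CDK2, CDC25A removes the phosphates that hold CDK2 back, and p21 (CDKN1A) inhibits these kinases. In colorectal cells MYC and CCND1 are known as targets of the Wnt and MAPK pathways.

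The regulatory sequence of this circuit is shown first. RefSeq promoters were matched for 6 of the 10 genes, CDC25A, E2F1, CDK4, CCNE1, CCND3 and CDK6, and the 250 bases upstream of a start were searched on both strands for 4 spellings of the E2F site (TTTGGCGC, TTTCCCGC, TTTCGCGC and TTTGCCGC) and for the E-box CACGTG, the DNA word read by MYC and its partner MAX. An E2F word was in 2.79% and the E-box in 6.34% of 35116 promoter windows. CDC25A is shown as a gene that fell after siGSTO1, E2F1 because it held 2 E2F words, and CDK4 because it held 3 E-boxes. Capitals mark the words found. The sequences are from RefSeq on GRCh38.p14, all on the minus strand, and read 5′ to 3′ toward the start. They cover chr3:48188418-48188667 for CDC25A, chr20:33686386-33686635 for E2F1 and chr12:57752311-57752560 for CDK4.
CDC25A: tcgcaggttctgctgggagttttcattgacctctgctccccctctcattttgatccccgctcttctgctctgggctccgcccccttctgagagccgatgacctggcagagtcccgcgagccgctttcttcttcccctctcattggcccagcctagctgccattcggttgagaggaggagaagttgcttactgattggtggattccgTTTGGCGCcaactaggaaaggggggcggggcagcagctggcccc
E2F1: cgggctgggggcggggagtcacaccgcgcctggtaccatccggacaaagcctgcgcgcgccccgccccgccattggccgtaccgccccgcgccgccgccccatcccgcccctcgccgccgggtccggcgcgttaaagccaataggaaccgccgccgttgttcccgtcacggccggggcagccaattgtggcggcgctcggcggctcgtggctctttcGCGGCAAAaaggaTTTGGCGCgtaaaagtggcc
CDK4: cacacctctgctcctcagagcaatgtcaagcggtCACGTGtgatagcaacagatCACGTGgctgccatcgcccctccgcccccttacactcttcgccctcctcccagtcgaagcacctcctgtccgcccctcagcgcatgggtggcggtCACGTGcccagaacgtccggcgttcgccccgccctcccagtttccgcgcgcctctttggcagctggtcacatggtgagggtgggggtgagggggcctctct
The first base of the CDC25A word lay 44 bases upstream of the start. In E2F1 they lay 33 and 20 bases upstream, the former as TTTGCCGC on the other strand. The CDK4 E-boxes began 216, 196 and 101 bases upstream. Neither kind of word was in the windows of CCNE1, of 2 CDK6 starts or of 3 CCND3 starts. A match is a string of letters in this window and not evidence of binding.

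Counts on the sense strand summed to between 18112861 and 36841146 per library. The 2 DMSO cultures differed by at least 1.4-fold at 19.1% of 7825 genes, with a log2 ratio SD of 0.388, so each fold change was also read against either culture alone. Of the colorectal epithelium markers, EPCAM, KRT8, KRT18 and KRT19 had a mean above 0.5 RPKM (reads per kilobase of gene, scaled to a fixed library total), CDH1 lay between 0.321 and 0.617 RPKM, VIL1 was close to 0 and CDX1 was at 0. The summed markers of other cell types reached at most 0.000828 RPKM for blood, 0.0271 RPKM for hepatocytes, 0.374 RPKM for endothelium and 0.313 RPKM for fibroblasts. The last value was COL1A1 after siGSTO1, against 0.140 and 0.0609 RPKM in DMSO cultures 1 and 2, and its part in the siGSTO1 results was not tested. Nascent GSTO1 RNA was 3.51 and 3.72 RPKM in DMSO cultures 1 and 2, 2.70 RPKM after siGSTO1 and between 3.78 and 4.21 RPKM after the compounds. An siRNA acts on mature RNA, so nascent RNA does not measure the depth of the knockdown. In bulk RNA, fewer cells that transcribe a gene and less transcription per cell cannot be told apart.

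In DMSO the 10 genes spanned a wide range of nascent RNA per kilobase. MYC was highest at 21.5 ± 1.83 RPKM (SD, n = 2), followed by CCND1 at 5.58 ± 1.36 RPKM. The ranges of these genes over both cultures did not overlap. CDK4, CDC25A, CDK2 and CDK6 came next with means of 3.70, 3.48, 2.98 and 2.38 RPKM, and each of them overlapped its neighbour in the order. CCNE2, E2F1 and CCNE1 followed with means of 1.57, 1.27 and 0.936 RPKM and overlapped each other in that order, and CCND3 was last at 0.0895 ± 0.0183 RPKM. The CCND3 value divides by a long interval with distant starts, described below. MYC was first and CCND3 last in all 6 libraries, whereas CCND1 was in place 2 in every library except siGSTO1, where it was in place 4. Between the DMSO cultures 8 of the 10 genes were higher in culture 1, and CCND1, CDK4 and E2F1 differed by 1.42-, 1.4- and 1.74-fold. Of 7825 genes, 1275 were at least 1.4-fold lower in culture 2 and 222 that much higher. The direction is therefore not particular to these genes.

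**Figure D1:**
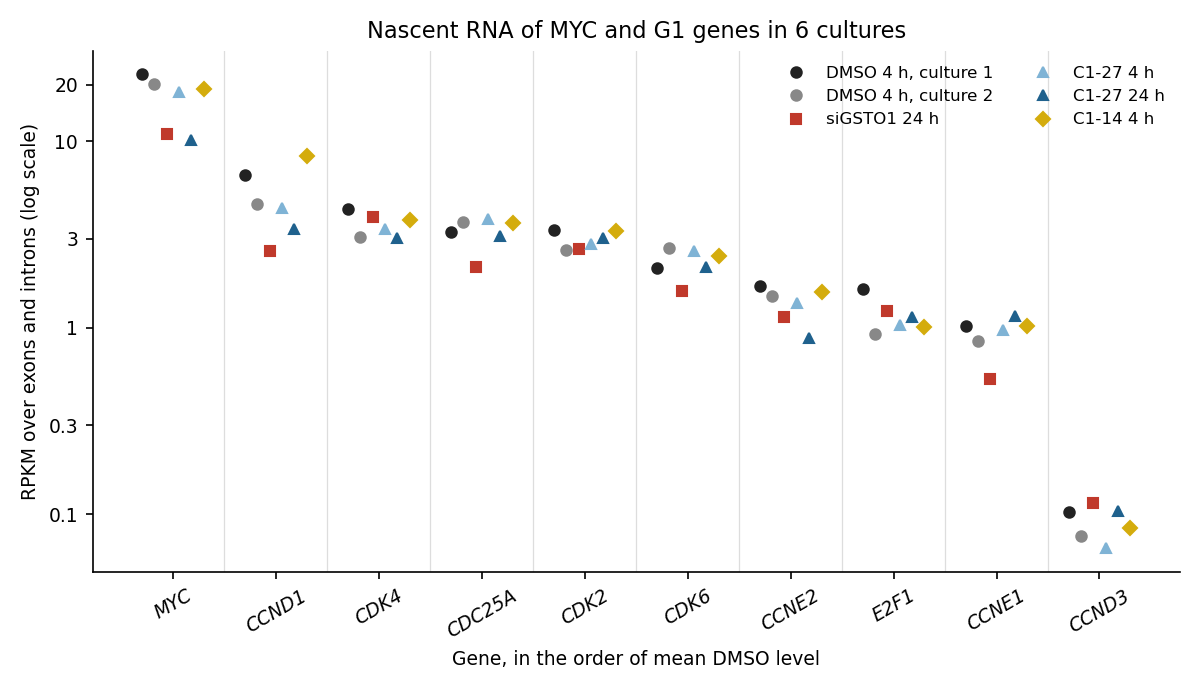
RPKM over exons and introns (log scale) of each gene in each of the 6 cultures, 1 point per culture, with genes in the order of their mean DMSO level. MYC lies between 10.1 and 22.8 RPKM, its lowest points being C1-27 24 h and siGSTO1, and CCND3 lies between 0.0660 and 0.116 RPKM.

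Transcription of MYC, CCND1 and CDC25A was lower after siGSTO1. By edgeR's quasi-likelihood test, with Benjamini-Hochberg adjustment over 14431 genes, 3 of the 10 genes were lower at an adjusted p under 0.05 and none was higher, beside 1.21% of all genes lower and 3.69% higher. Among the 9 genes with a mean above 0.5 RPKM, 5 were at least 1.4-fold below the DMSO mean (MYC, CCND1, CCNE1, CDK6 and CDC25A), beside 6.48% of all genes, and 6 were below both DMSO cultures, beside 34.2% of all genes. None of the 9 was above both cultures, beside 35.2% of all genes. The median log2 ratio was −0.61 over these 9 genes, beside −0.00072 over all genes above the same RPKM limit, and −0.53 over all 10. Scaling the libraries by TMM factors moved that median of all genes to −0.12 and DESeq2 size factors moved it to −0.15. The 1.4-fold counts over all genes, 852 higher and 527 lower, became 536 and 893 with TMM and 473 and 1082 with DESeq2 size factors, while those of the 10 genes became 0 higher and 6 lower with either.

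MYC was lower after 24 h of C1-27. The edgeR test called 1 of the 10 genes lower, beside 0.166% of all genes. At least 1.4-fold below the DMSO mean were 3 genes, MYC, CCND1 and CCNE2, beside 3.49% of all genes. With DMSO culture 1 alone as the control there were 5, CDK4 and E2F1 being added, and with culture 2 alone there were 2, MYC and CCNE2. Of the 9 genes above 0.5 RPKM, 5 were below both DMSO cultures (MYC, CCND1, CCNE2, CDK4 and CDC25A), beside 21.5% of all genes, and CCNE1 was above both, beside 36.8%. At 4 h of C1-27, edgeR called 0 of the 10 genes, beside 0.0208% of all genes in either direction, 0 had an unadjusted p under 0.05, beside 0.797%, and DESeq2 also called 0. None was 1.4-fold from the DMSO mean, beside 2.67% of all genes, and with DMSO culture 1 alone as the control 2 were, CCND1 and E2F1, both lower. MYC, CCND1 and CCNE2 were below both DMSO cultures, beside 18.9% of all genes, and CDC25A was above both, beside 21.6%.

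With C1-14, edgeR called 0 of the 10 genes, beside 0.139% of all genes in either direction, and DESeq2 called 0. Only CCND1 had an unadjusted p under 0.05, beside 1.61% of all genes, and only CCND1 was 1.4-fold above the DMSO mean, beside 3.71% of all genes. With DMSO culture 1 alone as the control, CCND1 no longer reached 1.4-fold and E2F1 was that much lower. MYC was below both cultures, beside 21.6% of all genes, and CCND1 and CCNE1 were above both, beside 27.2%. C1-14 was given at 10 μM and C1-27 at 1 μM, so the values of the compounds stand side by side and were not tested against each other. All 4 comparisons share the same DMSO cultures.

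**Figure D2:**
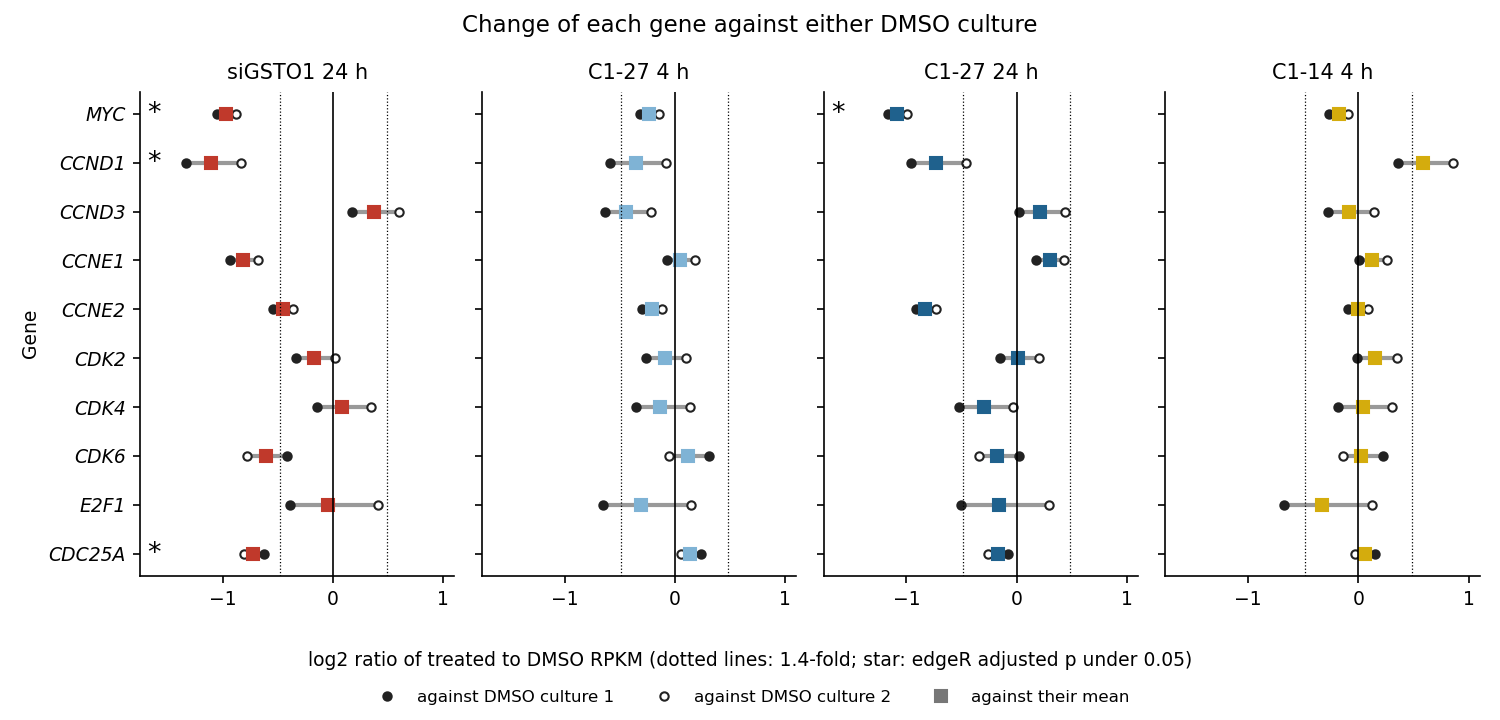
log2 ratio of treated to DMSO RPKM for each gene in the 4 treated cultures, against DMSO culture 1 (filled circles), culture 2 (open circles) and their mean (squares). Stars mark MYC, CCND1 and CDC25A after siGSTO1 and MYC after C1-27 24 h, and dotted lines mark 1.4-fold.

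MYC drives genes of growth and biosynthesis and is among the most rapidly turned over transcripts of the cell. It was at 22.8 and 20.2 RPKM in DMSO cultures 1 and 2, 10.96 RPKM after siGSTO1, 18.3 RPKM after C1-27 4 h, 10.1 RPKM after C1-27 24 h and 19.0 RPKM after C1-14. The siGSTO1 and C1-27 24 h cultures stood apart, and all 4 treated cultures lay below both DMSO cultures. Its level after siGSTO1 was 0.510 of the DMSO mean (0.481 and 0.543 of either culture), with an edgeR log2 change of −1.08 ± 0.26 (SE) and an adjusted p of 0.00183. Over 5 other settings of the test the adjusted p ran from 0.00134 to 0.0107. After C1-27 24 h it was 0.471 of the DMSO mean (0.444 and 0.501), with an edgeR log2 change of −1.14 ± 0.26 (SE) and an adjusted p of 0.00674, from 0.00461 to 0.0458 over the other settings. Against the 4 h culture of the same compound and dose, C1-27 24 h differed by −0.93 ± 0.29 (SE) on the log2 scale in edgeR, with an unadjusted p of 0.00114 and an adjusted p of 0.328. The MYC gene is counted over 5366 bases, and at most 3 reads per library were on its antisense strand.

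CCND1, or cyclin D1, is the D cyclin that answers mitogens. It was at 6.55 and 4.62 RPKM in DMSO cultures 1 and 2, 2.59 RPKM after siGSTO1, 4.36 RPKM after C1-27 4 h, 3.36 RPKM after C1-27 24 h and 8.37 RPKM after C1-14. The C1-14 culture was the highest of the 6 and siGSTO1 the lowest, and all 4 treated cultures lay outside the range of the DMSO cultures. After siGSTO1 it was 0.464 of the DMSO mean (0.396 and 0.560 of either culture), with an edgeR log2 change of −1.21 ± 0.27 (SE) and an adjusted p of 4.97e-04, from 3.74e-04 to 0.00657 over the other settings. After C1-27 24 h it was 0.602 of the DMSO mean (0.514 and 0.728), with an edgeR log2 change of −0.78 ± 0.26 (SE) and an adjusted p of 0.316. After C1-14 it was 1.499 times the DMSO mean (1.28 and 1.81), with an edgeR log2 change of 0.61 ± 0.24 (SE), an unadjusted p of 0.0120 and an adjusted p of 1.00. The gene lies at chr11:69455873-69469242 (hg19, plus strand). KRT8 and KRT18, keratins of simple epithelium, were highest in the same C1-14 culture, at 10.5 and 11.9 RPKM against 9.60 and 8.18 RPKM in DMSO culture 1 and 5.81 and 4.81 RPKM in culture 2. They were below both DMSO cultures after siGSTO1, at 5.65 and 3.93 RPKM, and after C1-27 24 h, at 3.903 and 3.887 RPKM. The same held after C1-27 4 h, at 5.25 and 4.39 RPKM. Of the other epithelial markers, CDH1 was below both DMSO cultures after C1-14, at 0.331 RPKM against 0.451 and 0.351 RPKM, and EPCAM and KRT19 were above both. In the siGSTO1 culture CDH1 was above both DMSO cultures, at 0.617 RPKM. EPCAM and KRT19 lay between the DMSO cultures there, at 3.49 and 4.77 RPKM. With C1-27 24 h KRT19 was below both and CDH1 and EPCAM lay between them. With C1-27 4 h CDH1, EPCAM and KRT19 were below both. The 7 markers summed to between 14.1 and 32.5 RPKM over the 6 cultures, and their part in the CCND1 values was not tested.

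CCND3, or cyclin D3, had the lowest RPKM of the 10 genes over its annotated length. It was at 0.102 and 0.0766 RPKM in DMSO cultures 1 and 2, 0.116 RPKM after siGSTO1, 0.0660 RPKM after C1-27 4 h, 0.104 RPKM after C1-27 24 h and 0.0846 RPKM after C1-14, on 273 to 544 counts. The siGSTO1 and C1-27 24 h cultures lay just above both DMSO cultures and C1-27 4 h below both, and edgeR called none of these differences, the smallest of the 4 unadjusted p-values being 0.309. The files count CCND3 over 113940 bases (chr6:41902671-42016610, hg19, minus strand), and RefSeq places its 3 starts as far as 109 kb apart on GRCh38.p14. The RPKM divides by the whole interval whichever start was in use, so it understates transcription from a start near the gene end. Which start was in use was not tested. Antisense reads made up 12.1 to 21.8% of the reads of both strands there.

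The E cyclins lay on opposite sides of DMSO after C1-27 24 h, and edgeR called neither change. CCNE1 was at 1.02 and 0.854 RPKM in DMSO cultures 1 and 2, 0.532 RPKM after siGSTO1, 0.968 RPKM after C1-27 4 h, 1.15 RPKM after C1-27 24 h and 1.02 RPKM after C1-14. Only siGSTO1 lay below both DMSO cultures, at 0.568 of their mean (0.523 and 0.623 of either culture), on 172 counts, with an edgeR log2 change of −0.92 ± 0.41 (SE) and an adjusted p of 0.217. CCNE1 was 1.23 times the DMSO mean after C1-27 24 h, with an edgeR adjusted p of 1.00. Between siGSTO1 and C1-27 24 h the edgeR log2 difference of CCNE1 was −1.17 ± 0.44 (SE), with an unadjusted p of 0.00802 and an adjusted p of 0.248. The gene lies at chr19:30302901-30315215 (hg19, plus strand), with no antisense read in any library.

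CCNE2, its paralogue, was at 1.67 and 1.47 RPKM in DMSO cultures 1 and 2, 1.15 RPKM after siGSTO1, 1.36 RPKM after C1-27 4 h, 0.885 RPKM after C1-27 24 h and 1.56 RPKM after C1-14. It was lowest after C1-27 24 h, and siGSTO1 and C1-27 4 h also lay below both DMSO cultures. After C1-27 24 h it was 0.563 of the DMSO mean (0.530 and 0.601), with an edgeR log2 change of −0.88 ± 0.32 (SE), an unadjusted p of 0.00626 and an adjusted p of 0.522. After siGSTO1 it was 0.729 of the DMSO mean, with an edgeR adjusted p of 0.420.

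Within a culture the ratio of paralogues does not depend on library size. CCNE2 was 1.64 and 1.72 times CCNE1 per kilobase in DMSO cultures 1 and 2, 2.15 times after siGSTO1, 1.4 times after C1-27 4 h and 1.53 times after C1-14. After C1-27 24 h it was 0.769 times CCNE1, with an exact 95% interval of 0.688 to 0.860 from the 2 counts, so that CCNE2 was the lower of the pair in this culture alone. CCND1 was 63.9 and 60.3 times CCND3 in DMSO, 66.1 times after C1-27 4 h, 99.0 times after C1-14, 32.4 times after C1-27 24 h and 22.4 times after siGSTO1. CDK4 was 2.07 and 1.15 times CDK6 in DMSO, and the 4 treated cultures ranged from 1.30 to 2.50 times, only siGSTO1 lying outside the DMSO values. Intervals of these ratios cover counting error only. The size of the CCND1 to CCND3 ratios also rests on the 113940 bases counted for CCND3. They overstate the difference if a CCND3 start near the gene end was in use.

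**Figure D3:**
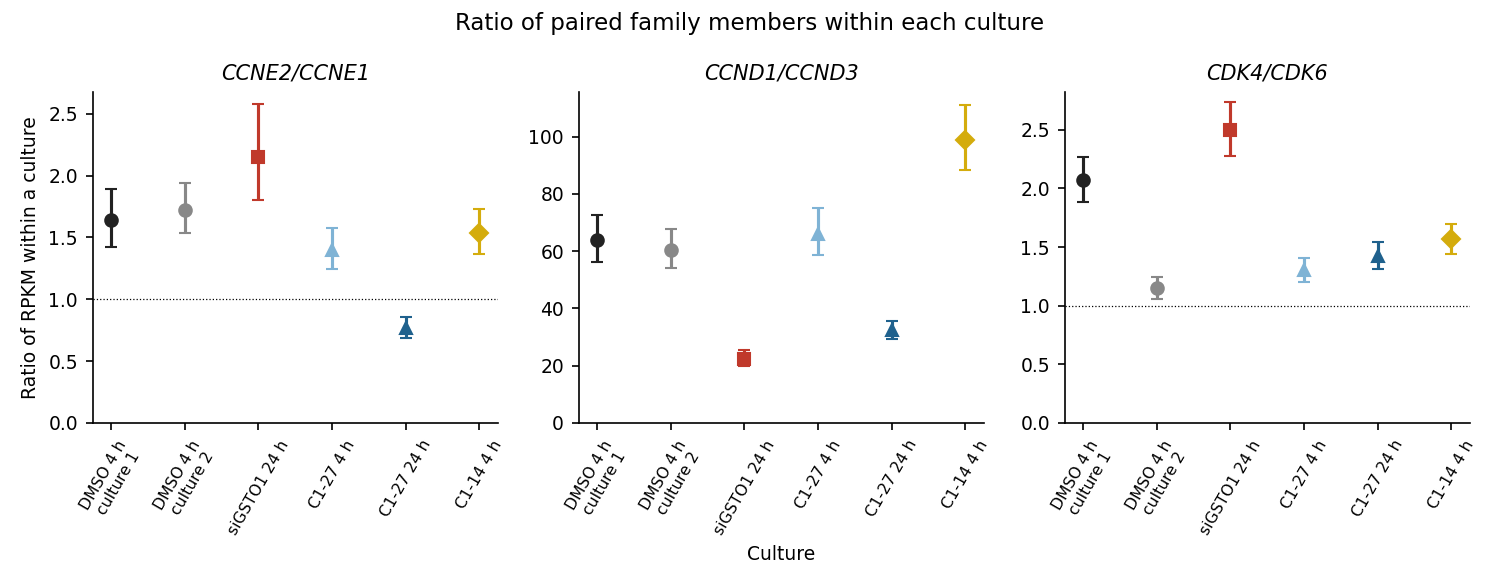
Ratio of RPKM within each culture for CCNE2 over CCNE1, CCND1 over CCND3 and CDK4 over CDK6, with exact 95% intervals from the counts; the dotted line is a ratio of 1. Only C1-27 24 h has a CCNE2 to CCNE1 ratio below 1 (0.769).

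The CCNE2 locus also carried antisense reads. They came to 285 and 472 counts in DMSO cultures 1 and 2, 313 after siGSTO1, 511 after C1-27 4 h, 633 after C1-27 24 h and 358 after C1-14, or 30.6 to 50.8% of the reads of both strands. Per kilobase they were at 0.826 and 0.784 RPKM in DMSO and at 0.700 to 0.932 RPKM in the treated cultures, highest after C1-27 24 h. INTS8, on the opposite strand, overlaps the CCNE2 interval by 269 bases and was at 2.164 and 2.198 RPKM in DMSO and 2.79 RPKM after C1-27 24 h. The antisense reads were counted over 14761 bases, which is the CCNE2 interval without these overlapping bases. The part of INTS8 transcription in the remaining reads was not tested.

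None of the kinases was called in any comparison with DMSO. CDK4, which pairs with D cyclins, was at 4.32 and 3.08 RPKM in DMSO cultures 1 and 2, 3.91 RPKM after siGSTO1, 3.37 RPKM after C1-27 4 h, 3.01 RPKM after C1-27 24 h and 3.80 RPKM after C1-14. Only C1-27 24 h lay outside the DMSO range, just below culture 2. CDK6, the other partner of D cyclins, was at 2.09 and 2.68 RPKM in DMSO, 1.57 RPKM after siGSTO1, 2.59 RPKM after C1-27 4 h, 2.11 RPKM after C1-27 24 h and 2.43 RPKM after C1-14. Only siGSTO1 was outside the DMSO range, at 0.657 of the mean (0.751 and 0.584 of either culture), with an edgeR log2 change of −0.72 ± 0.30 (SE), an unadjusted p of 0.0164 and an adjusted p of 0.174. CDK6 is the longest of the 10 genes, counted over 231707 bases (chr7:92234235-92465941, hg19, minus strand), and its 9526 to 25349 counts per library made it the most deeply counted.

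CDK2, the partner of E cyclins, was at 3.35 and 2.61 RPKM in DMSO cultures 1 and 2, 2.65 RPKM after siGSTO1, 2.81 RPKM after C1-27 4 h, 3.01 RPKM after C1-27 24 h and 3.32 RPKM after C1-14. All 4 treated cultures lay between the DMSO cultures, and the largest edgeR log2 change was −0.27 ± 0.33 (SE) after siGSTO1, with an adjusted p of 0.791. E2F1 was at 1.62 and 0.930 RPKM in DMSO, 1.23 RPKM after siGSTO1, 1.03 RPKM after C1-27 4 h, 1.14 RPKM after C1-27 24 h and 1.01 RPKM after C1-14. Its DMSO cultures were the farthest apart of the 10 genes and all 4 treated cultures lay between them, so a change smaller than that gap could not be seen in E2F1.

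CDC25A was at 3.26 and 3.70 RPKM in DMSO cultures 1 and 2, 2.11 RPKM after siGSTO1, 3.84 RPKM after C1-27 4 h, 3.09 RPKM after C1-27 24 h and 3.63 RPKM after C1-14. The siGSTO1 culture was well below the other 5, which lay close together. It was 0.606 of the DMSO mean (0.647 and 0.570 of either culture), with an edgeR log2 change of −0.84 ± 0.26 (SE) and an adjusted p of 0.0284. This call held in 3 of 5 other settings and was lost with DESeq2 (adjusted p = 0.0992) and without a filter on low counts (edgeR adjusted p = 0.0857). Between siGSTO1 and C1-27 24 h the edgeR log2 difference was −0.61 ± 0.29 (SE), with an unadjusted p of 0.0331 and an adjusted p of 0.522. The gene lies at chr3:48198668-48229801 (hg19, minus strand), and its promoter, with the E2F word shown above, is given on the other build.

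Tests between treatments called none of the 10 genes. For C1-27 24 h against 4 h, edgeR called 0, beside 0.125% of all genes, MYC alone had an unadjusted p under 0.05, beside 2.89% of all genes, and DESeq2 called 0. For siGSTO1 against C1-27 24 h, edgeR called 0, beside 1.43% of all genes, CCNE1 and CDC25A had an unadjusted p under 0.05, beside 8.05% of all genes, and DESeq2 called 0. In the latter comparison the MYC difference was 0.05 ± 0.29 (SE) on the log2 scale, with an edgeR adjusted p of 0.995, and a p of this size does not show that the levels were alike.

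The rest of the pathway was read from 57 named genes, of which 53 had enough counts to be tested. After siGSTO1, CDKN1A, 1 of 6 CDK inhibitors tested, rose and E2F8, 1 of 9 other E2F and DP factors, fell, and the other 51 did not pass the edgeR test. These single calls stand beside 3.69% of all genes higher and 1.21% lower, so 1 call among 53 was near the background in either direction. DESeq2 called the same 2 genes. An unadjusted p under 0.05 was seen for 7 of the 53, namely these 2 and CAD, NOP56, RBL2, MXD4 and MXI1, beside 15.2% of all genes. CDKN1A, the CDK inhibitor p21, was at 1.18 and 1.32 RPKM in DMSO cultures 1 and 2 and 6.79 RPKM after siGSTO1, 5.44 times the DMSO mean, with an edgeR log2 change of 2.32 ± 0.28 (SE) and an adjusted p of 2.36e-13. The study had earlier reported this rise from the same libraries, so its direction here is not independent evidence. After C1-27 4 h, C1-27 24 h and C1-14 CDKN1A was at 1.53, 2.22 and 1.78 RPKM, above both DMSO cultures each time, with edgeR adjusted p-values of 1.00, 0.575 and 1.00. CDKN1A was the one gene of the 53 called by edgeR between siGSTO1 and C1-27 24 h, by 1.55 on the log2 scale. This stands beside 1.43% of all genes called in either direction. In that comparison CDKN1A and E2F8 had an unadjusted p under 0.05, beside 8.05% of all genes, and the E2F8 log2 difference was −0.87. E2F8, a repressor among the E2F factors, was at 3.78 and 4.34 RPKM in DMSO and 2.20 RPKM after siGSTO1, 0.542 of the DMSO mean, with an edgeR log2 change of −1.0 ± 0.27 (SE) and an adjusted p of 0.00684. In the other cultures E2F8 was at 3.85 to 4.24 RPKM.

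In the 3 compound cultures edgeR and DESeq2 called 0 of the 53 genes. By edgeR, 0.0208% of all genes were called in either direction after C1-27 4 h and 0.139% after C1-14, and 0 is near these shares. After C1-27 24 h, 0.166% of all genes were called lower, and the share called higher is not given here. An unadjusted p under 0.05 was seen for 0 of the 53 after C1-27 4 h, beside 0.797% of all genes. After C1-27 24 h it was seen for CDKN1A, NCL and NOP56, beside 4.28%, and after C1-14 for CDKN2D and ODC1, beside 1.61%. Of 10 textbook MYC targets, which serve nucleolar and biosynthetic functions, 0 were called in any comparison. After siGSTO1, CAD and NOP56 of these 10 had an unadjusted p under 0.05, beside 15.2% of all genes, and the median edgeR log2 change of the list was −0.42, beside 0.02 over all genes. The median of the list was −0.37 after C1-27 24 h, beside 0.00, and at C1-27 4 h and C1-14 it was −0.07 and −0.01. All 10 genes of the list were higher in DMSO culture 1 than in culture 2, so their levels were less reduced against culture 2 alone. NOP56 was at 29.3 and 16.4 RPKM in DMSO cultures 1 and 2. It stayed close to culture 2 after siGSTO1 and C1-27 24 h, at 16.5 and 16.3 RPKM. CAD, an enzyme of pyrimidine synthesis, had the largest change of the list after siGSTO1, −0.70 ± 0.26 (SE), with an edgeR adjusted p of 0.106. NCL, which encodes nucleolin, had the largest after C1-27 24 h, −0.57 ± 0.28 (SE), with an adjusted p of 1.00.

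Pocket proteins, which hold E2F factors back, had no call among 3 genes, RBL2 having the largest change after siGSTO1 at 0.58 with an edgeR adjusted p of 0.268. MYC partners and antagonists had no call among 10 tested, the largest change after siGSTO1 being 1.31 for MXD4, a partner of MAX that opposes MYC, on 49 counts and with an edgeR adjusted p of 0.269. MXI1, another such partner of MAX, was better counted, at 1725 counts, with an edgeR log2 change of 0.61 and an unadjusted p of 0.0179. Other G1 cyclin, kinase and degradation genes had none among 6, with SKP2, which targets p27 for degradation, at −0.50. The S, G2 and M phase cyclins and kinases had none among 9, with CDC25B at 0.52. The median edgeR log2 change of that last list was −0.06 after siGSTO1 and 0.04 after C1-27 24 h. With siGSTO1, edgeR called 1.21% of all genes lower and 3.69% higher. The absence of calls in lists this short is therefore near the background and does not show that these genes were unchanged.

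In the compound cultures no gene of these lists was called. The largest edgeR log2 change of each remaining list after C1-27 24 h was 0.77 for CDKN1A, 0.46 for RBL2, 0.39 for the E2F partner TFDP2, 0.13 for CDK7, 0.83 for MXD4 and 0.50 for CDC25C. After C1-27 4 h it was 0.64 for the CDK4 and CDK6 inhibitor CDKN2D, on 13 counts, −0.12 for RBL2, −0.28 for E2F4, −0.17 for CKS1B, −0.32 for MYCL1, −0.23 for NCL and 0.25 for WEE1. After C1-14 it was 1.61 for CDKN2D, on 23 counts, −0.10 for RB1, −0.23 for E2F2, −0.10 for CKS1B, 0.62 for MYCL1, 0.51 for ODC1, the first enzyme of polyamine synthesis, and 0.26 for CCNA2. CDKN2D had only 2 and 12 counts in the DMSO cultures. The CDK inhibitors had the highest list median after siGSTO1, 0.51, and a median of 0.34 after C1-27 24 h, beside 0.02 and 0.00 over all genes. After siGSTO1 only CDKN1A, CDKN1B and CDKN2A of this list averaged over 0.5 RPKM. Their edgeR log2 changes were 2.32, 0.12 and −0.47, so the median does not show a rise shared by the list.

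**Figure D4:**
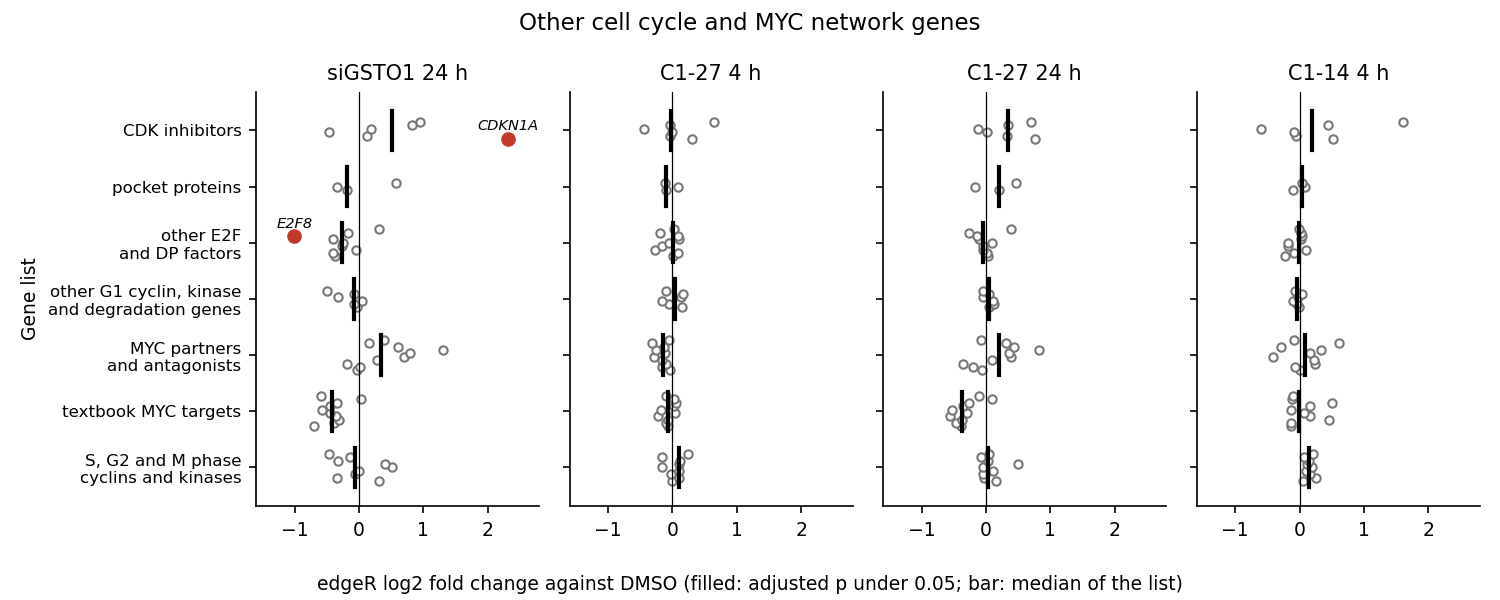
edgeR log2 fold change against DMSO of 53 other cell cycle and MYC network genes in 7 lists, 1 circle per gene, with the median of each list as a bar. Filled circles passed the test: CDKN1A (2.32) and E2F8 (−1.0), both after siGSTO1.

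Genes that followed the 3 called genes most closely over the 6 cultures were found among 7112 genes by the root mean square difference of centred log2 RPKM, as a description over 6 points that share libraries and depth. Closest to MYC were GAL, encoding the neuropeptide galanin, with a difference of 0.132, ADM, encoding the vasodilator adrenomedullin, with 0.142, and FOSL1, encoding the AP-1 factor FRA1, with 0.145. FOSL1 was at 7.67 and 7.06 RPKM in DMSO cultures 1 and 2, 4.53 RPKM after siGSTO1, 7.44 RPKM after C1-27 4 h, 4.56 RPKM after C1-27 24 h and 7.67 RPKM after C1-14. That siGSTO1 and C1-27 24 h were low in FOSL1 and in MYC follows from how FOSL1 was picked and is not separate evidence. Closest to CCND1 were BANF1 (0.180), PTRF (0.196) and the keratin gene KRT18 (0.217). Closest to CDC25A were DNAJC25 (0.0437), FAM171A1 (0.0484) and TMEM5 (0.0508).

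**Figure D5:**
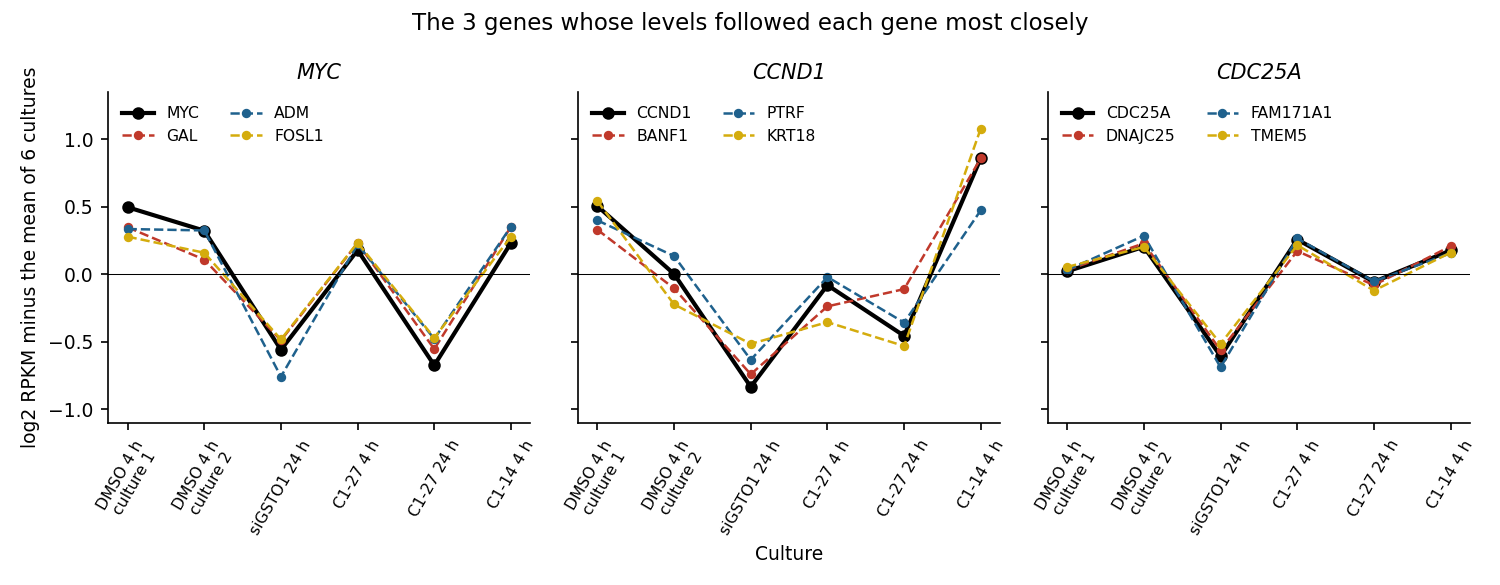
Centred log2 RPKM over the 6 cultures of MYC, CCND1 and CDC25A (black) and of the 3 genes closest to each (dashed). MYC and its 3 neighbours are lowest in the siGSTO1 and C1-27 24 h cultures, CCND1 and its neighbours are highest after C1-14, PTRF included at 1.61 RPKM, and CDC25A and its neighbours are lowest after siGSTO1.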

How the data were processed

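Bru-seq libraries of 6 HCT116 cultures in 5 groups were used, grouped by their GEO titles. Per the submitters' processing notes, the authors used CASAVA 1.8.2, Bowtie 0.12.8, TopHat 1.4.1 and bedtools 2.16.2 with build hg19. The authors deposited expected counts of reads on each strand of a gene, introns included, which are raw and sometimes fractional. The deposited signal is that count per base and was used only to recover the library totals behind RPKM. The deposited RPKM were made by the authors from counts, gene length and totals of 23388424 to 46017051 reads.

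A fold change divides the RPKM of a treated culture by the DMSO mean with no pseudocount, and shares of all genes refer to those longer than 300 bases whose treated and DMSO levels averaged over 0.5 RPKM. Counts were rounded and fitted with edgeR 4.0.16 (R 4.3.3; 5 groups, TMM, quasi-likelihood test, Benjamini-Hochberg adjustment over 14431 genes with at least 10 counts in at least 2 libraries). Its 1 residual degree of freedom came from the DMSO cultures, so the spread was taken from the trend over all genes (common dispersion 0.0381) and not from each gene. DESeq2 1.42.0 was an alternative. Others were its size factors, no low-count filter, a fit without the other treatments, another RPKM limit or scaling, a pseudocount of 0.1 RPKM, either DMSO culture alone, and edgeR's legacy quasi-likelihood method, chosen after seeing the data. Ratio intervals are exact at 95%. Scripts used Python 3.11.15, numpy 2.4.6, pandas 2.3.3, scipy 1.17.1 and matplotlib 3.10.9.

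The 10 genes and the lists were chosen with earlier results of these data known. Named are all 10 genes, the listed pathway genes called or with the largest change in their list where none was called, and the 3 genes closest to each called gene. RBL2, NOP56, CAD, NCL, CDKN1A, CDKN2D, MXI1, MXD4 and ODC1 are also named where their unadjusted p was under 0.05. CDKN1B and CDKN2A are named as the other CDK inhibitors that averaged over 0.5 RPKM after siGSTO1. Rows with ambiguous strand were left out, and antisense rows were used only as described.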

Additional observations from a re-analysis of the deposited data

Results flagged for a closer look

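Antisense reads over CDK4, a strand that no comparison used, were at 0.163 RPKM after siGSTO1, from 18 counts, at least 1.4-fold above the 0.102 and 0.0758 RPKM of DMSO cultures 1 and 2, from 10 and 13 counts. After C1-27 24 h they were at 0.141 RPKM from 27 counts, and after C1-27 4 h and C1-14 at 0.0783 and 0.0206 RPKM from 13 and 3 counts. TSPAN31, which overlaps CDK4 by 517 bases on the other strand, was at 1.47 RPKM after siGSTO1, 0.923 and 0.816 RPKM in DMSO and 1.00 RPKM after C1-27 24 h. The antisense reads were counted over 4204 bases, the CDK4 interval without the overlapping bases. The part of TSPAN31 transcription in them was not tested, and the difference between cultures was not tested.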

How the results depend on the processing

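No called gene changed direction under the alternatives run. For the counts of called or 1.4-fold changed genes, 74 alternative values stayed within 1.5 times the main count and 2 did not. Without DMSO culture 2 the genes at least 1.4-fold lower rose from 0 to 2 after C1-27 4 h (CCND1 and E2F1) and from 3 to 5 after C1-27 24 h (with CDK4 and E2F1 added). Leaving out either DMSO culture gave 0 to 2 genes for C1-27 4 h, 2 to 5 for C1-27 24 h, 5 to 5 for siGSTO1 and 1 to 1 for C1-14, where CCND1 was replaced by E2F1, lower, without culture 2. With siGSTO1, CCNE2 took the place of CDK6 without culture 2, TMM or DESeq2 scaling of the RPKM gave 6 genes and a mean above 1 RPKM gave 4. The CDC25A call after siGSTO1 was lost with DESeq2 (log2 −0.88) and without the low-count filter (log2 −0.84), and the cause was not tested. The other 3 calls, MYC and CCND1 after siGSTO1 and MYC after C1-27 24 h, held in all 5 alternatives. No test was possible without a DMSO culture, since no residual degree of freedom is left. No paired analysis was possible because only DMSO had numbered replicates. After siGSTO1 the edgeR SE was 0.41 at 172 counts (CCNE1), 0.26 at 1544 counts (MYC) and 0.30 at 9526 counts (CDK6).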
